A study of Mus musculus with 6 samples.

Results

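The interleukin-1 family of cytokines, with its receptors and inhibitors, was examined in mouse liver through the 10 genes Il1a, Il1b, Il1rn, Il1r1, Il1r2, Il1rap, Il18, Il18bp, Il33 and Il1rl1. Every probe set whose gene symbol in the platform annotation was one of these was taken, which gave 16 of the 38195 probe sets tested and covered 9 of the 10 genes. Il1rl1 had no probe set among these, so its expression was not analysed here, though the bases around its transcription starts were searched for motifs. The arrays compare 3 livers of RECS1-flox mice (control), which carry floxed alleles of RECS1, with 3 livers of RECS1-HKO mice, in which RECS1 is deficient in hepatocytes. RECS1 is an older name of Tmbim1. All mice were C57BL/6, were 16 weeks old and had received a high-fat diet for 8 weeks. The labels describe 3 biological samples per genotype. The sources used here do not give the Cre driver of the deletion, the sex of the animals or the substrain. The RNA came from whole liver, so it holds hepatocytes and all other liver cells together, and fewer cells of a type cannot be told apart from less RNA per cell.

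Interleukin-1 alpha and interleukin-1 beta are inflammatory cytokines that bind the receptor encoded by Il1r1, which then recruits the accessory chain encoded by Il1rap and signals through the adaptor MyD88 to NF-kB. The pathway is held in check by a soluble receptor antagonist (Il1rn) that occupies the receptor without signalling and by a decoy receptor (Il1r2) that binds ligand but lacks a signalling domain. Interleukin-18 and interleukin-33 belong to the same family, and interleukin-18 is neutralised by a binding protein (Il18bp). In liver, interleukin-1 beta comes mainly from macrophages and is released after cleavage by inflammasome caspases, while hepatocytes respond to it with acute phase proteins.

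Of the 16 probe sets 2 rose in HKO liver, that of Il1b and the brighter of the pair for Il1r1, and none fell (limma, Benjamini-Hochberg adjusted p under 0.05 over all 38195 probe sets). Among all probe sets, 0.702% passed the same test in either direction, 0.367% as higher and 0.335% as lower. The other 14 member probe sets, of 8 genes, had log2 fold changes between -0.22 and 0.16, 9 of them above 0 and 5 below. The median over the 16 was 0.04, beside 0.00 over all probe sets. The members were chosen with earlier results of these data known, so the count describes them and is no independent evidence about the family.

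Because Il1b and Il1r1 were the members that rose, the bases before their transcription starts are shown, from RefSeq on GRCm38.p6. Each sequence covers 250 bases, 5′ to 3′ on the strand of the gene, and ends at the base before the start. Capitals mark matches, on either strand, to 3 motifs that were searched: the NF-kB letters GGGNNNNNCC, the C/EBP letters TTGCNNAA and the TATA letters TATAAA. Il1b has 1 start in the table, at chr2:129371140-129371389 on the minus strand, and Il1r1 has 2, an upstream one at chr1:40224830-40225079 and a downstream one at chr1:40266336-40266585, both on the plus strand.
Il1b: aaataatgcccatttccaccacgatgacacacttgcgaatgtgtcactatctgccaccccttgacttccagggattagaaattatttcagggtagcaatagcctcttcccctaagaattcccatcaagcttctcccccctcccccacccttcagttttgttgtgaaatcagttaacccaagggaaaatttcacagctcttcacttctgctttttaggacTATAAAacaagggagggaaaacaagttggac
Il1r1 upstream start: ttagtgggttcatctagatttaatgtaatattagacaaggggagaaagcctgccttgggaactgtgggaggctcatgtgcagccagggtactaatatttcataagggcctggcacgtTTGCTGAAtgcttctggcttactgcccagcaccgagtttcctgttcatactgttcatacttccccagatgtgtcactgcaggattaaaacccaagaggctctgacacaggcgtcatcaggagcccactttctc
Il1r1 downstream start: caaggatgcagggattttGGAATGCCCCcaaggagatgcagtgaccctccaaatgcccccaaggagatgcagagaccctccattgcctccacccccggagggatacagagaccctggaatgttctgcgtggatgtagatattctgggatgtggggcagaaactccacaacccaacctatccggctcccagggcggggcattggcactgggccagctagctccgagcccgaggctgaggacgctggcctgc

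The Il1b sequence holds TATAAA beginning 31 bases before the start (position -31) and no match to the other 2 motifs. The upstream Il1r1 sequence holds TTGCTGAA at position -133, and the downstream one holds GGAATGCCCC at position -232, which is the NF-kB pattern read on the opposite strand. Over the full windows of 300 bases, which add 50 bases after the start, NF-kB letters occurred in 5 of the 15 windows of the 10 genes and in 50.8% of all 32851 windows. The C/EBP letters occurred in 4 of the 15 and in 10.8% of all windows, and the TATA letters in 6 of the 15 and in 13.6% of all. The NF-kB matches lie in windows of Il1r1, Il1rap and Il1rn. The Il1rn windows that begin at chr2:24345041 and chr2:24345121 overlap and share the same NF-kB match, so windows are not independent units. The letters are a description of the windows, and whether a factor binds there was not measured.

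Among the cytokines, Il1b rose in HKO liver. Its probe set (1449399_a_at) read 4.71, 4.72 and 4.55 on the control arrays and 7.04, 6.84 and 6.67 on the HKO arrays (log2 values). All 3 HKO livers lay above all 3 controls, with a gap far wider than the spread within either genotype. The mean went from 4.66 ± 0.10 to 6.85 ± 0.18 (SD, n = 3 each). The difference was 2.19 ± 0.11 log2 units (SE), or 4.56-fold with a 95% interval from 3.85 to 5.41 (limma, adjusted p = 2.96e-05). Il1b has this 1 probe set in the table, so no second one could be set beside it.

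The other 3 cytokines did not pass. Il1a, whose product binds the same receptor and whose gene lies next to Il1b in the reference gene order, read 4.28, 3.86 and 4.03 in controls and 4.21, 4.19 and 4.14 in HKO. Those ranges overlap, and the log2 fold change was 0.12 ± 0.11 (SE), with a 95% interval from -0.13 to 0.37 that does not reach the interval of Il1b. Il18, which hepatocytes and macrophages store as a precursor, read 7.79, 7.84 and 7.75 in controls and 7.86, 7.96 and 7.80 in HKO, a log2 fold change of 0.08 with an interval from -0.10 to 0.26. Il33, an alarmin held in the nucleus of endothelial and stromal cells, read 4.44, 4.40 and 4.68 in controls and 4.48, 4.68 and 4.63 in HKO, a log2 fold change of 0.09 with an interval from -0.14 to 0.32. In each of these 3 genes HKO and control values overlapped.

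**Figure D1:**
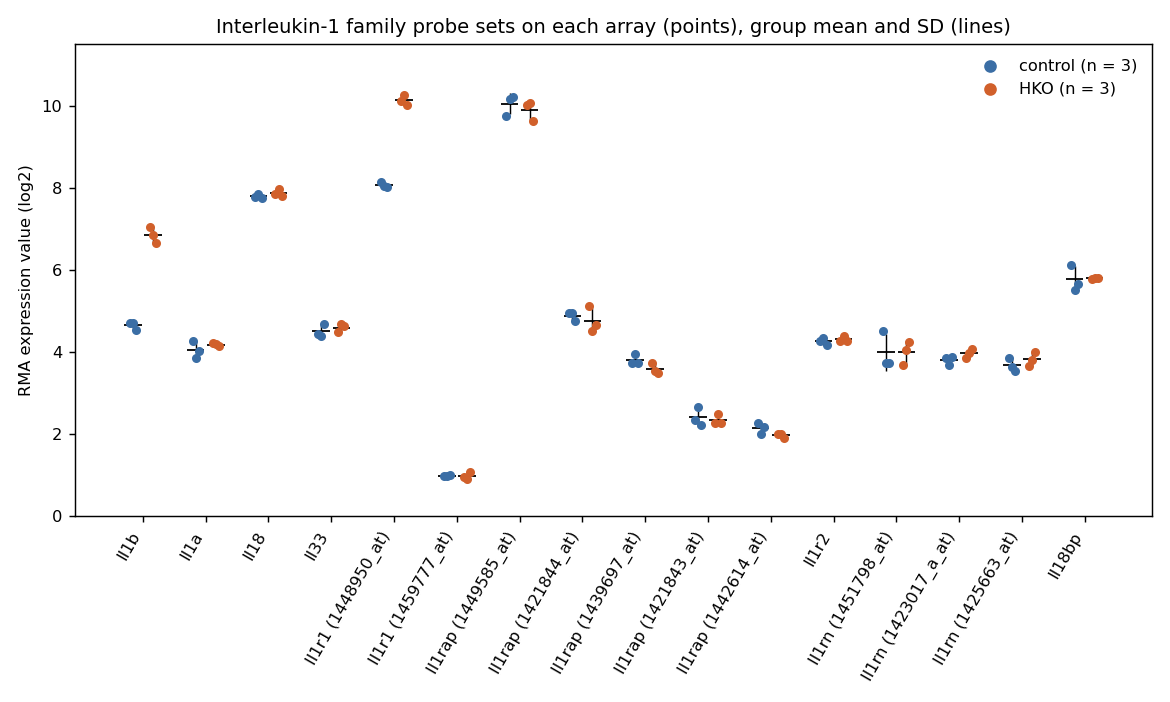
Log2 expression value (vertical axis) of each of the 16 probe sets (horizontal axis), with 3 control arrays in blue and 3 HKO arrays in orange. Horizontal lines are group means and vertical lines the SD. Il1b and the brighter Il1r1 probe set have HKO points above all control points, and the other 14 overlap.

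Il1r1, the signalling receptor, rose by its brighter probe set. That probe set (1448950_at) read 8.14, 8.05 and 8.01 in controls and 10.12, 10.26 and 10.02 in HKO. The groups did not overlap, and the mean went from 8.07 ± 0.07 to 10.13 ± 0.12 (SD, n = 3 each). The log2 fold change was 2.07 ± 0.09 (SE), or 4.19-fold with a 95% interval from 3.64 to 4.83 (limma, adjusted p = 1.44e-05).

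The other Il1r1 probe set (1459777_at) read 0.97, 0.97 and 1.00 in controls and 0.97, 0.90 and 1.08 in HKO. Its log2 fold change was 0.00 ± 0.08 (SE), with an interval from -0.18 to 0.18. Its mean over the 6 arrays exceeded that of only 1.22% of all probe sets, so it sat at the dim end of the scale, where a change may not be measurable. The difference between both probe sets, taken within each array, was 2.07 ± 0.12 (SE; limma over 25132 probe sets of genes with several, adjusted p = 2.69e-05), a test that 0.191% of those probe sets passed. Since the dim probe set may be unable to show a change, this restates the rise of the brighter one and does not show that the transcript parts they detect differ. By the median of both probe sets Il1r1 had a log2 fold change of 1.03 (limma over genes, adjusted p = 0.000189). Of 111 genes with 2 or more probe sets and at least 1 past the threshold, 80 had only 1 such probe set and 31 had 2 or more.

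The accessory chain gene Il1rap did not pass in any of its 5 probe sets, all of which had values below 0. The brightest (1449585_at) read 9.75, 10.16 and 10.22 in controls and 10.02, 10.05 and 9.62 in HKO, a log2 fold change of -0.15 with an interval from -0.50 to 0.20. The largest difference was that of 1439697_at, at -0.22 ± 0.10 (SE; limma, adjusted p = 0.441), and the other 3 lay between -0.18 and -0.07. In all 5 the genotypes overlapped. Of the 2 chains that form the signalling receptor, the ligand-binding chain rose by 1 probe set while the accessory chain showed no rise of that size in any.

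Il1r1 lies in a row of related receptor genes in the reference gene order, which runs Il1r2, Il1r1, Il1rl2, Il1rl1, Il18r1 and Il18rap. The decoy receptor Il1r2, next to it, stood at 0.05. Il1rl2, which binds interleukin-36 and lies on the other side, stood at 0.06 and 0.00 by its probe sets. Il18r1 and Il18rap, the chains of the interleukin-18 receptor, stood at -0.11 and at -0.11 and 0.11. None of these neighbours passed the test (limma, adjusted p between 0.748 and 0.998).

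**Figure D2:**
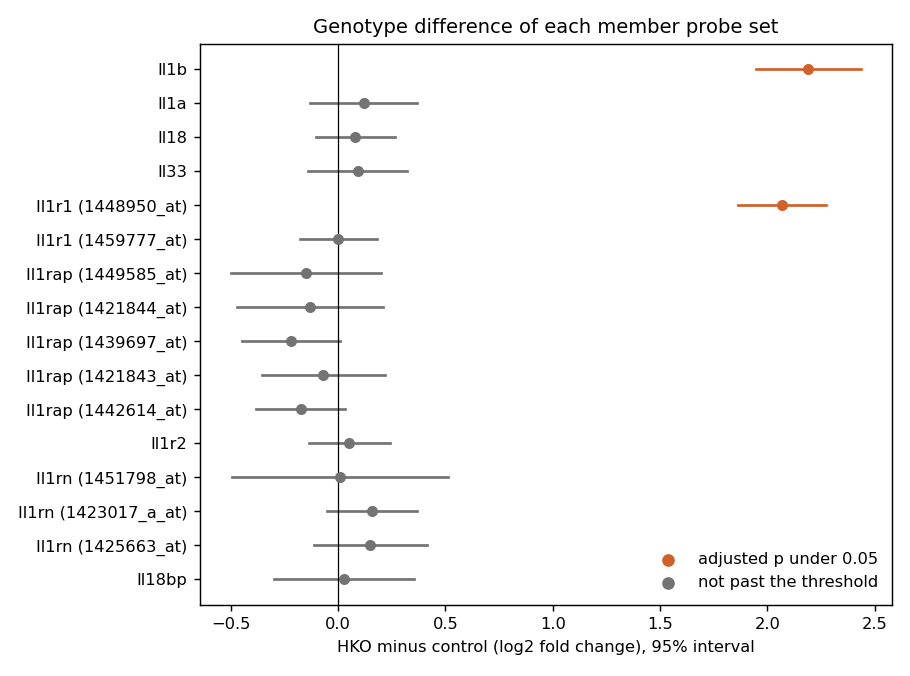
Log2 fold change, HKO minus control (horizontal axis), of each member probe set, with its 95% interval as a line; orange marks an adjusted p under 0.05. Il1b at 2.19 and the brighter Il1r1 probe set at 2.07 stand apart from the other 14, which lie between -0.22 and 0.16.

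The inhibitors did not pass. Il1r2 read 4.27, 4.34 and 4.17 in controls and 4.28, 4.39 and 4.27 in HKO, a log2 fold change of 0.05 ± 0.08 (SE). The receptor antagonist Il1rn, which inflammatory stimuli usually induce together with Il1b in macrophages, had 3 probe sets, at 0.16, 0.15 and 0.01. The brightest of them (1451798_at) read 4.52, 3.72 and 3.74 in controls and 3.70, 4.06 and 4.25 in HKO, with a wide interval from -0.50 to 0.51. The widest interval of the other 2 reached 0.41, so a rise of Il1rn as large as that of Il1b lies outside all 3 intervals.

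Il18bp read 6.13, 5.52 and 5.66 in controls and 5.78, 5.80 and 5.81 in HKO, a log2 fold change of 0.03 ± 0.14 (SE). Control 1 was the highest array for both Il18bp and 1451798_at of Il1rn. Control 1 also had the highest summed signal of the neutrophil markers described below, 248 against 115 and 122 in the other controls. The part of this array in those values was not tested. Without control 1 the log2 fold changes were 0.20 for Il18bp and 0.27 for 1451798_at of Il1rn.

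Il1b, Il1r1 and Il18 were also each set against an inhibitor or decoy within each array, with the brightest probe set of each gene. Il1a, Il33 and Il1rap were not. Il1b rose more than Il1rn, with a difference of 2.18 log2 units between their fold changes. Il1r1 rose more than the decoy Il1r2, with a difference of 2.02, or 0.98 by the median of the probe sets of each gene. In both pairs all 3 HKO livers lay above all 3 controls, and the two-sided exact permutation p was 0.1, the smallest that 3 against 3 can give (0.15 after adjustment over the 3 pairs). For Il18 against Il18bp the difference was 0.05 (exact permutation p = 0.9), and it was -0.13 without control 1. A test of this size cannot pass 0.05. The first 2 differences restate the rises of Il1b and Il1r1 beside genes that did not pass, and are no further evidence of them.

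The genes whose values over the 6 arrays lay nearest to those of Il1b and Il1r1 were found by the root mean square difference, after each probe set was set to 0 at its control mean. Nearest to Il1b were Il12b (0.126 log2 units), which encodes a subunit of interleukin-12, then Il1r1 (0.140) and Nfkbia (0.148), the NF-kB inhibitor. Nearest to Il1r1 were the type I interferon genes Ifnb1 (0.0995) and Ifna4 (0.129), then Il1b (0.140). Likeness over 6 arrays in 2 genotypes mostly reflects a similar genotype difference.

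In none of the genes named in this way that have another probe set did another one pass. The Nfkbia probe set (1438157_s_at) rose by 2.38 ± 0.09 (SE; adjusted p = 8.20e-06), while its other 4 stood between -0.02 and 0.12. Those 4 were bright, with control means of 10.21, 8.69, 7.44 and 6.30. The Il12b probe set (1449497_at) rose by 2.34 (adjusted p = 2.67e-05) from a dim control mean of 1.96. The other Il12b probe set stood at 0.03, with a control mean of 1.77, where a change may not be measurable. Ifnb1 rose by 2.10 and Ifna4 by 2.19 from control means of 2.60 and 2.55, dim values below the median probe set (3.94). In Il1r1, Nfkbia and Il12b, the rise thus rests on 1 probe set each, with the others between -0.02 and 0.12, and Il1b has only 1. Those others were bright for Nfkbia but dim for Il1r1 and Il12b. The scanner files behind these values were not analysed here, so none of these rises was checked at the level of single probes.

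**Figure D3:**
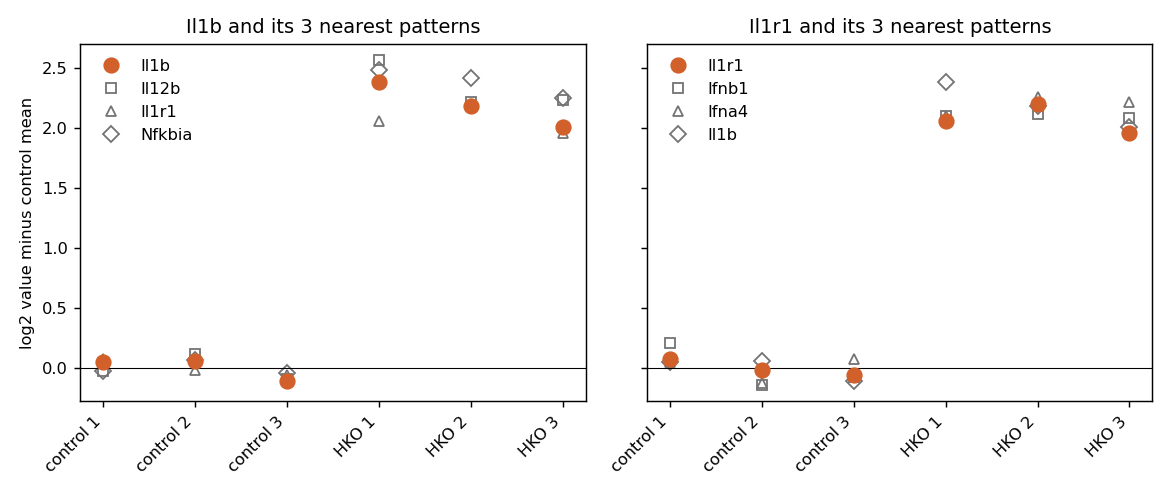
Log2 value minus the control mean (vertical axis) on each of the 6 arrays, for Il1b (left) and Il1r1 (right) in orange and the 3 nearest genes of each in grey. The nearest probe set lies 0.126 log2 units from Il1b and 0.0995 from Il1r1, and on every HKO array all of these probe sets stand far above the control arrays.

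Other parts of the pathway were read from lists of known genes. Of 11 measured further family members, none of 16 probe sets passed. They were the interleukin-36 ligands and their antagonist, under their older symbols Il1f6, Il1f8, Il1f9 and Il1f5, and Il1f10, Il18r1, Il18rap, Il1rl2, Il1rapl1, Il1rapl2 and the inhibitory receptor Sigirr. The lowest p values were those of an Il1rapl2 probe set, at 0.26 (adjusted p = 0.286), and Il1f10, at -0.19 (adjusted p = 0.426). The other Il1rapl2 probe sets stood at -0.13 and 0.02. The median log2 fold change over the 16 probe sets was 0.04.

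Of 23 measured signalling genes between the receptor and NF-kB or the MAP kinases, 3 had a probe set that rose and none had one that fell, with 3 of 68 probe sets past the threshold and a median of 0.01. The adaptor Myd88 rose by 1.70 ± 0.07 and Rela, the p65 subunit of NF-kB, by 1.91 ± 0.08 (SE; adjusted p = 1.44e-05 and 1.03e-05). Myd88 and Rela have 1 probe set each, so no second one could be set beside it. Nfkbia was the third, by 1 of its 5 probe sets, as given above. The remaining 20 genes, none of which passed, included the kinases Irak1, Irak2 and Irak3, the ubiquitin ligase Traf6 and the kinase Map3k7 with its Tab partners. The largest values among them were 0.31 for a probe set of Traf6 and 0.29 for Relb.

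Of 18 measured genes of the inflammasome and cytokine processing, Casp8 rose by 1.29 ± 0.07 (SE; adjusted p = 7.89e-05) and the other 17 did not pass. Casp8, which has 1 probe set, encodes an initiator caspase that can also cleave the interleukin-1 beta precursor. Gsdmd, the pore through which mature interleukin-1 beta leaves the cell, stood at -0.56 (adjusted p = 0.0546), and passed in 3 of the alternative fits. It did not pass with quantile normalization, array weights or the replicate block. Nor did it pass in any fit without 1 array (limma, adjusted p between 0.0638 and 0.206). Txnip, a binding partner of the sensor Nlrp3, stood at -0.56 by 1 probe set (adjusted p = 0.135) and at -0.12 by the other (adjusted p = 0.749). The list, with Nlrp3, Pycard and Casp1 among those that did not pass, had a median of 0.00.

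Of 20 genes that interleukin-1 induces in liver, 3 rose and none fell, with a median of -0.15 over 30 probe sets. The cytokine Il6 rose by 2.00 ± 0.17, the monocyte chemokine Ccl2 by 1.61 ± 0.17 and the prostaglandin synthase Ptgs2 by 1.55 ± 0.09 (SE; adjusted p = 0.00121, 0.00365 and 5.82e-05). Il6 and Ptgs2 started from dim control means of 1.43 and 1.28, and the other Ptgs2 probe set stood at 0.08. Il6 and Ccl2 have 1 probe set each. The acute phase protein Orm1 stood at -0.51 (adjusted p = 0.115) and the feedback inhibitor Socs3 at -0.48 (adjusted p = 0.0606). The 17 genes that did not pass, which include the serum amyloid and acute phase genes of hepatocytes, had values between -1.45 and 0.23. The lowest was that of Saa1 (adjusted p = 0.236) and the highest that of a Tnfaip3 probe set (adjusted p = 0.493). The summed linear signal of the list, which its brightest genes dominate, was lower in HKO. It ran from 13960.5 to 14866 in HKO and from 15767 to 21934.7 in controls, highest in control 1.

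**Figure D4:**
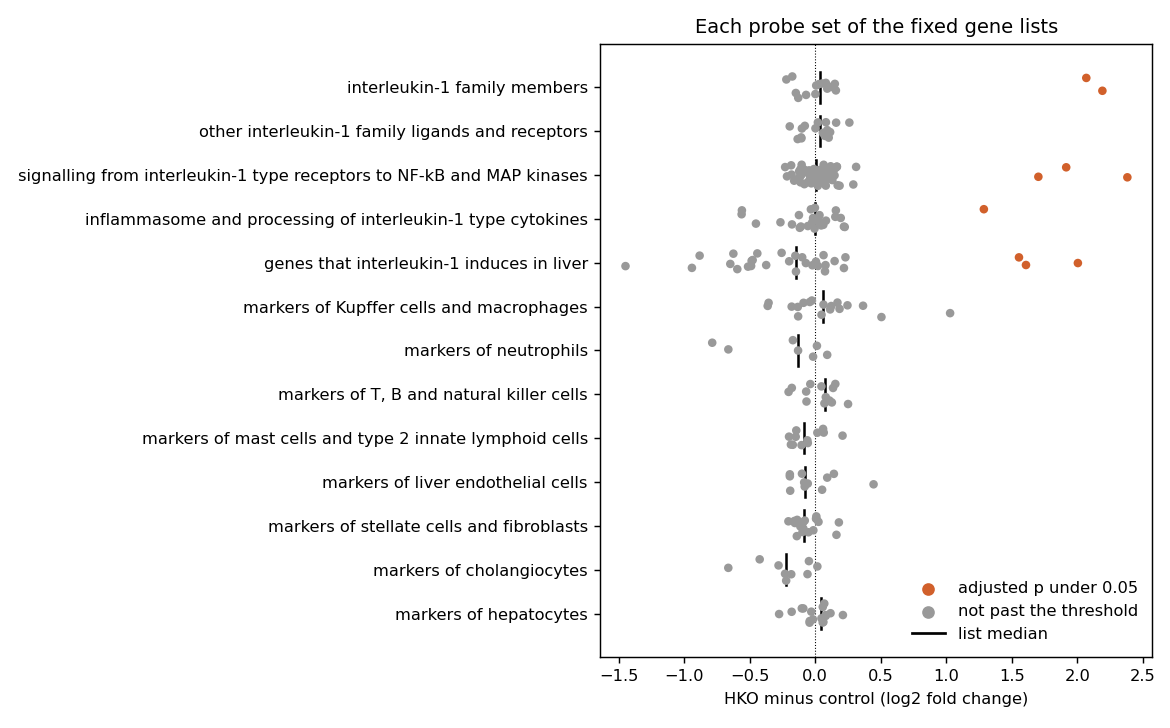
Log2 fold change, HKO minus control (horizontal axis), of each probe set of the members and the gene lists (rows), with orange for an adjusted p under 0.05 and a black bar at the list median. Orange points lie at 1.29 or above, and the list medians lie between -0.22 and 0.08.

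Markers of the cells that make or sense these cytokines were measured beside them. None of 11 measured Kupffer cell and macrophage markers passed. Their summed linear signal, which the brightest markers dominate, was 3919, 2741 and 2876 in controls 1, 2 and 3. It was 3192, 3652 and 3231 in HKO 1, 2 and 3. Control 1 thus had the highest sum, and all HKO sums lay above those of controls 2 and 3. The lowest p values were those of a Ccr2 probe set and of Itgam, both at -0.36 (adjusted p = 0.218 and 0.541). The other Ccr2 probe sets stood at 0.17, 0.11 and 0.06. The largest positive values, named after they were seen, were those of the scavenger receptor Marco, at 1.03 and 0.50 by its probe sets, and of Adgre1, at 0.36 (adjusted p = 0.63, 0.793 and 0.596). Marco moved to between 0.17 and 1.69, and to between -0.25 and 1.06, when 1 array was left out, the lower value of each being without HKO 2. Of 7 neutrophil markers none passed, with sums of 115 to 248 in controls and 104 to 132 in HKO. S100a8 and S100a9 stood at -0.79 and -0.66, and at -0.10 and -0.11 without control 1. Markers of T, B and natural killer cells (8 genes), mast cells and type 2 innate lymphoid cells (9), endothelial cells (8), stellate cells (8) and cholangiocytes (5) also held none past the threshold. Their lowest p values belonged to Cd8a (0.25) and Cd4 (-0.20), Gata3 (-0.20) and Tpsb2 (-0.17), Oit3 and Clec4g (both -0.19), Hand2 (-0.20) and Des (0.16), and Sox9 (-0.66) and Krt7 (-0.22), with adjusted p between 0.183 and 0.538. Each of these values is that of the probe set with the lowest p. Cd4 and Des had another probe set, at 0.08 and -0.09, and Hand2 had others at 0.01 and -0.01. Further probe sets of Cd8a, Tpsb2, Clec4g and Sox9 had the sign given. Many of these markers were dim, so a change in them may not be measurable. Even by the brightest probe set, 5 of the 8 T, B and natural killer cell genes lay below the median brightness. So did 6 of the 9 mast cell and type 2 innate lymphoid cell genes and 4 of the 5 cholangiocyte genes. No endothelial or stellate cell gene did. The cholangiocyte sums were lower in HKO, 45.5 to 50.6 against 56.3 to 61.3, and the sums of the other marker lists overlapped between genotypes. The part of cell content in the Il1b and Il1r1 differences was not tested. Hepatocyte markers (8 genes) were all bright, and none passed, with an Hnf4a probe set at -0.28 and Ttr at 0.12. The other Hnf4a probe sets stood at -0.18, 0.06 and 0.21.

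The 6 arrays had median log2 values between 3.923 and 3.953, and 268 probe sets passed over the table. The targeted gene Tmbim1 fell from 7.65 ± 0.08 to 7.13 ± 0.07 (SD, n = 3 each; log2 fold change -0.52 ± 0.08, limma adjusted p = 0.0338), with no overlap, but its adjusted p was between 0.0895 and 0.125 when any 1 array was left out. Its position relative to the deletion is not known here, so this is a limited check of the genotype. Over all probe sets 7.8% had HKO values wholly above and 9.15% wholly below the controls, against 2 and 0 of the 16 members.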

How the data were processed

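Total RNA of 6 livers was extracted with Trizol and labelled from 400 ng for Affymetrix arrays, per the labels' protocols. The deposited table holds log2 values that the authors computed by RMA. The submitters' processing notes name RMA and limma, with versions not given in the sources used here. RMA brings arrays to a common distribution and shrinks differences of dim probe sets. Of 38208 probe sets, 13 Affymetrix controls were left out. The platform annotation gave 34325 probe sets 1 gene, 62 several and 3808 none, and 34131 matched the reference gene table by identifier. No filter on low values was applied, so all 16 member probe sets were tested.

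All 38195 probe sets were fitted with limma 3.58.1 in R 4.3.3 (lmFit, eBayes, HKO minus control, two-sided, no covariate), with Benjamini-Hochberg adjustment and a threshold of 0.05. The same fit was made for each probe set minus the mean of the other probe sets of its gene. The number of arrays limits the precision, with a median SE of 0.097. The steps were tested on simulated data with independent noise for each probe set, which cannot check how single probes read. Lists were counted, with no test of their own. List sums use the brightest probe set of each gene on the linear scale. The named genes are all members, and in each list those past the threshold and the 2 others with the lowest p. Marco, Adgre1, Saa1 and Tnfaip3 were added after their values were seen, and further list genes are named without values, as contents of a list. Members and lists were chosen with earlier results of these data known. The alternatives tried were quantile normalization, median centring, a filter on dim probe sets, trend and robust eBayes, array weights, a replicate block, 1 value per gene and leaving out each array.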

Additional observations from a re-analysis of the deposited data

How the results depend on the processing

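Il1b and the brighter Il1r1 probe set passed, and the other 14 member probe sets did not, in every refit that held them. In the 6 fits without 1 array the log2 fold change lay between 2.10 and 2.28 for Il1b (adjusted p 0.000149 to 0.000449) and between 2.00 and 2.13 for Il1r1 (0.000136 to 0.000436), and the member count was 2 in each. The number of all probe sets past the threshold fell from 268 to between 87 and 197 without 1 array, 87 being without HKO 1. With the replicate block it was 221, both members passed (count 2) and Tmbim1 did not (adjusted p = 0.086). Same-numbered arrays were not paired, since their deviations correlated at -0.076, 0.060 and 0.10. With only the probe sets above the median mean, the within-gene contrast held 0 member calls, because the dim Il1r1 probe set was left out; otherwise it held 2, which are both sides of the Il1r1 pair.

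Without 1 array 10 of 96 member values changed sign, all of them in probe sets that did not pass: 1459777_at of Il1r1 (-0.046 to 0.041), 1421843_at of Il1rap (-0.17 to 0.060), Il18bp (-0.098 to 0.20) and 1451798_at of Il1rn (-0.13 to 0.27). The difference between Il18 and Il18bp ran from -0.13 to 0.20, that between Il1b and Il1rn from 1.94 to 2.40 and that between Il1r1 and Il1r2 from 1.97 to 2.05. The list counts, refitted after the data were seen, take rises and falls together. That of processing genes was 2 by median centring, the brightness filter or trend and robust eBayes. The added gene was Gsdmd, which stood below 0. That of induced genes was 2 by the brightness filter, which left out dim ones, and 5 by trend and robust eBayes. The probe sets added there were not listed. Outside the 3 rises the lowest p values of the main fit belonged to Socs3 (-0.48) and Orm1 (-0.51). That of cholangiocyte markers was 1 without control 3. The smaller of the Marco log2 fold changes ranged from -0.25 (without HKO 2) to 1.06 (without HKO 3) over the fits that left out 1 array.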

Other observations

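Interleukin and interleukin receptor genes outside the 10 members, meaning all other genes whose symbol starts with Il and a number, were looked at after the data were seen. Of their 98 probe sets, of 64 genes, 3 rose and none fell (limma, adjusted p under 0.05), with a median log2 fold change of -0.04. Besides Il6, these were the genes of both subunits of interleukin-12, a cytokine of macrophages and dendritic cells that drives interferon gamma production. Il12a rose from 2.81 to 4.28, by 1.47 ± 0.08 (SE; adjusted p = 4.86e-05), and Il12b from 1.96 to 4.30, by the probe set described above. All 3 had control means below the median probe set (3.94). The other 95 probe sets lay between -0.79, for 1 of Il6ra (adjusted p = 0.344), and 0.46, for Il15 (adjusted p = 0.267). The lowest p among them was that of Il15ra, whose probe sets stood at -0.46 and -0.44 (limma, adjusted p = 0.0561 and 0.196). By the same test 0.367% of all probe sets were higher and 0.335% lower.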
